A study of Mus musculus with 20 samples.

Results

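Collagen chain genes encode the alpha chains that assemble, as trimers wound into a helix, into the collagens of the extracellular matrix. They were taken as every gene whose platform symbol is Col, a number, the letter a and a number, which gave 36 genes on 58 probe sets, out of 12393 genes with a single symbol on 22626 probe sets. One probe set, a group of short probes for 1 transcript, stood for each gene, the one with the highest mean over all arrays. All 36 symbols were the same in RefSeq.

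In skeletal muscle, fibrillar collagens (types I, III and V) form the rope-like fibres between muscle fibres and in tendon, and fibroblasts are their main source. Type IV collagen is a sheet-like network in the basement membrane that wraps each muscle fibre and capillary, and type VI collagen forms beaded microfilaments between that membrane and the interstitial fibres. New chains are hydroxylated and folded inside the cell, then trimmed, bound by small proteoglycans and cross-linked outside it.

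The study measured skeletal muscle total RNA of 20 mice on biotin-labelled 3' expression arrays, 1 array per mouse, to see how endurance training affects mice that over-express MHC-I. The groups were transgenic trained, transgenic untrained, wild-type trained and wild-type untrained mice, 5 mice each, named by titles that start with TGT, TGUT, WTT (also written wtt) and WTUT. The labels used here give no strain, promoter, muscle, sex, age, training schedule or array date, and do not spell out MHC-I. Litters, cages and batches are not given either, so p-values measure the spread between these mice and can hold technical differences.

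The values are intensities on a linear scale. Array medians ran between 157 and 175, and Gapdh 3' over 5' log2 ratios, a reading of RNA integrity, between -0.06 and 0.10. Muscle markers were bright on every array: Acta1 averaged 18220.0 in transgenic trained and 17992 in wild-type untrained mice, and no marker of any cell type was at 0 in any mouse. Of the genes that MHC-I can stand for, H2-K1 differed by -0.12 ± 0.15 log2 between transgenic and wild-type mice (SE, adjusted p = 0.724) and Myh7, the slow myosin heavy chain, fell by 1.27 ± 0.26 (adjusted p = 0.0201). Neither was higher in the mice labelled transgenic. Array wtt-137 has 822 empty cells and array TGT-133 has 386, against 4 to 83 on 17 of the others. In wtt-137, 4 of the 58 collagen probe sets are empty (6.90%, against 3.63% of all 22626), those of Col1a1 and Col1a2 among them.

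Of the 36 genes, 24 were bright enough to test, that is at or above the 40th percentile of mean level, an intensity of about 126. The other 12 were too dim and are named only: Col2a1, Col4a4, Col4a5, Col8a1, Col9a1, Col9a2, Col10a1, Col11a1, Col13a1, Col14a1, Col17a1 and Col19a1. Just inside the limit stood Col26a1 at a mean of 131.6 and Col22a1 at 134.6, and just outside it Col14a1 at 123 and Col2a1 at 122. Intensities of different probe sets depend on the probes as well as on the transcript, so levels were not ranked between genes.

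**Figure D1:**
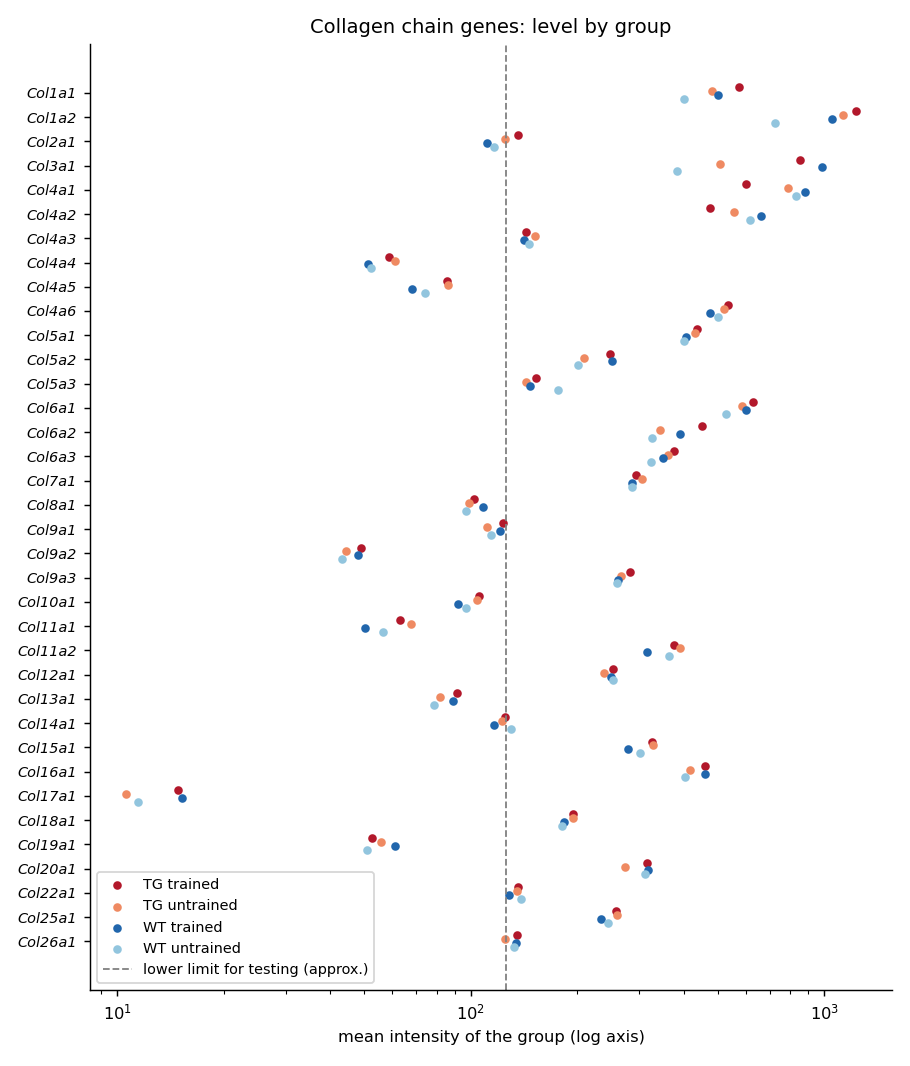
Mean intensity of each of the 36 collagen chain genes (log axis) in the 4 groups, 1 dot per group, genes in order of type number, with the lower limit for testing as a dashed line. The 12 dim genes lie at or left of the line by their mean over all mice, and Col3a1 shows both trained groups right of both untrained groups.

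Training was compared first, averaged over genotypes, in limma's linear model over all 20 arrays. Of the 24 tested genes 1 rose with training, Col3a1, and 0 fell, which is 4.17% of the genes. Across all 13576 tested probe sets 4.99% were called, 2.41% higher and 2.59% lower, so the share among collagen genes is near the background. Without adjustment 6 collagen genes had a p under 0.05, all of them higher in trained mice (25% against 20.7% of all probe sets): Col3a1, Col6a2, Col1a1, Col5a2, Col1a2 and Col16a1. The median difference over the 24 genes was 0.02 log2, with 14 above 0, against 0.00 and 50.7% above 0 over all probe sets.

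Col3a1 encodes the single chain of type III collagen, the fine fibrils that accompany type I collagen. Transgenic trained mice had Col3a1 intensities of 722, 864, 748, 949 and 976, against 236, 240.3, 1143, 567 and 347 in transgenic untrained mice. Wild-type trained mice had 802, 752, 1937, 1083 and 338, against 268, 174, 563, 279.7 and 629 in wild-type untrained mice. The groups overlapped in both genotypes, because TGUT-145 at 1143 was above every transgenic trained mouse and WTT-144 at 338 was below WTUT-136 and WTUT-142.

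Col3a1 averaged 852 ± 115 in transgenic trained, 507 ± 380.2 in transgenic untrained, 982 ± 597 in wild-type trained and 383 ± 200.3 in wild-type untrained mice (SD, n = 5 each). The training difference averaged over genotypes was 1.02 ± 0.28 log2 (SE), or 2.03-fold, with a 95% interval of 0.44 to 1.60 and an adjusted p of 0.04. The spread of the trained transgenic mice was far narrower than that of the untrained ones, and the model shares 1 estimate of the spread over all groups. Within a genotype the difference was 0.88 ± 0.39 in transgenic (adjusted p = 0.253) and 1.15 ± 0.39 in wild-type mice (adjusted p = 0.372), and neither was called. The difference between these training effects was -0.27 ± 0.56 (adjusted p = 0.9999).

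The call for Col3a1 was close to the threshold: it held in 6 of the 20 fits that left out 1 mouse, with values of 0.88 to 1.18 and adjusted p of 0.0083 to 0.0809. It was lost without wtt-137 (0.88, adjusted p = 0.0747) and had its smallest p without TGUT-145 (1.18, adjusted p = 0.0083). It was also lost with arrays centred on their medians (adjusted p = 0.053), with no filter on dim probe sets (adjusted p = 0.0556) and without the 2 arrays with the most empty cells (adjusted p = 0.0811). The second Col3a1 probe set was too dim to test, with a mean of 46.5. Of 9 tested fibroblast markers 0 were called with training, against 4.99% of all probe sets, but 8 lay above 0, at a median of 0.12 log2. Dcn, at -0.11, was the exception in sign. An unadjusted p under 0.05 was found for 4 of them, against 20.7% of all probe sets: Clec3b (0.12), Cd34 (0.19), Pi16 (0.21) and Mfap5 (0.16). By genotype, 9 lay above 0 in wild-type mice, 3 with an unadjusted p under 0.05, against 7.87% of all probe sets. In transgenic mice 7 lay above 0, and 2 of the 9 had such a p, against 17.4% of all probe sets. The summed intensity of the 10 fibroblast markers on the array ran 7162 to 9887 in transgenic trained, 9078 to 11190 in transgenic untrained, 9010 to 10740 in wild-type trained and 6177 to 10400 in wild-type untrained mice. Their part in the Col3a1 values was not tested. In whole muscle RNA, fewer cells of a type and less RNA per cell cannot be told apart.

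The 250 bases before the Col3a1 start are shown beside those of Col1a2 because Col3a1 carries the only call and Col1a2 the widest transgene difference among fibrillar chains in these data. Both are from RefSeq, build GRCm38.p6, plus strand, at chr1:45311288-45311537 for Col3a1 and chr6:4505368-4505617 for Col1a2, written 5′ to 3′. Capitals mark CAGAC (or GTCTG, the same letters on the other strand), the letters SMAD proteins of the TGF-beta pathway can bind, and CCAAT (or ATTGG), the box bound by the NF-Y factor.
Col3a1: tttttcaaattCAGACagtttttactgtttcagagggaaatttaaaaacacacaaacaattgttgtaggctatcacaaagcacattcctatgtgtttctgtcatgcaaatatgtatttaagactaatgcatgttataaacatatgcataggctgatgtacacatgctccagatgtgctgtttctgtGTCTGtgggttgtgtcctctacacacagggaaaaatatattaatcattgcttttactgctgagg
Col1a2: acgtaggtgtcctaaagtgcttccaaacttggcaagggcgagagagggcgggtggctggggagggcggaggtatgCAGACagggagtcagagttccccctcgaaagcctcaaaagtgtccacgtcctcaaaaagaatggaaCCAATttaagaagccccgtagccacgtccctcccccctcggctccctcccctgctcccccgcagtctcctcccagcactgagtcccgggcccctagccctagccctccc
Col3a1 holds CAGAC starting at -239 and GTCTG at -64, counted from -1 for the base before the start, and no CCAAT. Col1a2 holds CAGAC at -175 and CCAAT at -109, besides GGGCGG at -205 and -188, the letters bound by Sp1. Of 36 genes 27 had a window in the table, 30 windows in all, and among these 14 (46.7%) hold CAGAC, 12 (40%) CCAAT and 16 (53.3%) GGGCGG on either strand. Over all 32851 windows of that length the shares were 42.2%, 33.8% and 32.7%. None of these motifs share bases in the printed windows. A match describes the letters and is not a binding site.

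Type I collagen, the main collagen of tendon and the muscle's fibrous sheets, is built from Col1a1 and Col1a2 chains. Transgenic trained mice had Col1a2 intensities of 1094, 1039, 1260.1, 1181 and 1572, against 859, 894, 1423, 1580.4 and 907 in transgenic untrained mice. Wild-type trained mice had 1167, 1145, 1182 and 707, with the cell of wtt-137 empty, against 698, 497, 953, 847 and 639.5 in wild-type untrained mice. The ranges overlapped in both genotypes: TGUT-145 lay above 4 of the 5 transgenic trained mice and TGUT-146 above all 5, and WTT-144 lay among the wild-type untrained mice.

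The Col1a2 training difference was 0.32 ± 0.14 log2 averaged over genotypes (adjusted p = 0.197), 0.14 ± 0.19 in transgenic and 0.50 ± 0.20 in wild-type mice (adjusted p = 0.520 in wild-type), without the empty array. Col1a1 averaged 574 ± 52.0 in transgenic trained, 481 ± 160.4 in transgenic untrained, 499.8 ± 90.7 in wild-type trained (n = 4, wtt-137 empty) and 401 ± 40.1 in wild-type untrained mice (SD, n = 5 in the others). Its single values were 549.6, 554, 533, 568 and 664 in transgenic trained mice, against 378, 363, 673, 639 and 352 in transgenic untrained mice. In wild-type mice the trained values were 536, 515, 578 and 369, against 408, 359.5, 465, 389 and 382 in the untrained mice. As for Col1a2, TGUT-145 and TGUT-146 were the high untrained mice and WTT-144 the low trained one. The Col1a1 training difference of 0.27 ± 0.11 log2 was not called (adjusted p = 0.162). A further Col1a1 probe set, also empty in wtt-137, gave -0.05 ± 0.04 (adjusted p = 0.536), so the probe sets of this gene disagree in sign.

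**Figure D2:**
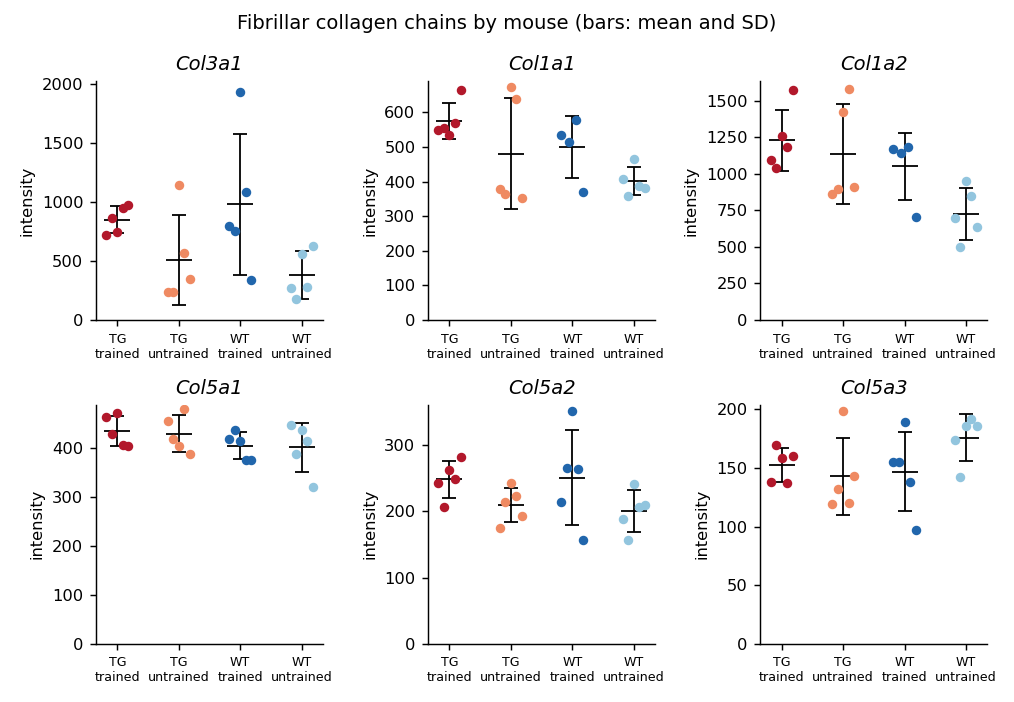
Intensity per mouse of the 6 bright chains of collagen types I, III and V in the 4 groups (5 mice each, 4 wild-type trained mice for Col1a1 and Col1a2), with mean and SD as bars. The Col3a1 panel has 1 wild-type trained mouse at 1937 and 1 transgenic untrained mouse at 1143, far from the rest of their groups.

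Type V collagen chains nucleate fibrils and set their width. Col5a2 had intensities of 242, 207, 262, 248 and 282 in transgenic trained mice, against 175, 214, 242, 222 and 192 in transgenic untrained mice. Wild-type trained mice had 215, 266, 351, 264 and 157, against 189, 156, 241, 207 and 209.7 in wild-type untrained mice. The highest mouse was wtt-137, as for Col3a1, and the lowest trained mouse WTT-144, and the groups overlapped. The Col5a2 training difference was 0.21 ± 0.09 log2 (adjusted p = 0.179). Col5a1 averaged 436 ± 31.4 in transgenic trained, 430.3 ± 37.8 in transgenic untrained, 405 ± 27.5 in wild-type trained and 402 ± 50.2 in wild-type untrained mice, with single mice between 322 and 482 and a training difference of 0.02 ± 0.05. Col5a3 averaged 153 ± 14.3 in transgenic trained, 142.8 ± 32.9 in transgenic untrained, 146.8 ± 33.6 in wild-type trained and 176 ± 19.9 in wild-type untrained mice, with single mice between 96.7 and 199 and a training difference of -0.06 ± 0.07 (SD, n = 5 each for levels).

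Over the 7 tested fibrillar chains the median training difference was 0.21 log2, with 5 above 0 and a range of -0.10 to 1.02. The lowest was Col11a2, a chain of cartilage-type fibrils, at -0.10 ± 0.14. In the single genotypes 0 of the 24 collagen genes were called, against 0.309% of all probe sets in transgenic and 0% in wild-type mice. Unadjusted, 4 collagen genes had a p under 0.05 for training in transgenic mice (16.7%, against 17.4% of all) and 2 in wild-type mice (8.33%, against 7.87% of all).

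Type VI collagen is a trimer of Col6a1, Col6a2 and a further chain such as Col6a3, and its loss causes muscle disease in humans. Col6a2 had intensities of 456, 487, 407, 478 and 426 in transgenic trained mice, against 266, 269, 476, 373 and 330.1 in transgenic untrained mice. Wild-type trained mice had 385, 357, 602, 335 and 274, against 372, 303, 362, 293 and 301 in wild-type untrained mice. Among transgenic mice only TGUT-145 of the untrained reached the trained range, while the wild-type groups overlapped apart from WTT-129 and wtt-137, which lay above every untrained mouse. The Col6a2 training difference averaged 0.27 ± 0.10 log2 (adjusted p = 0.127), at 0.36 ± 0.15 in transgenic and 0.19 ± 0.15 in wild-type mice. Its second probe set, of a kind that can bind several transcripts, gave 0.21 ± 0.09 (adjusted p = 0.170).

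Col6a1 had intensities of 659, 537, 683, 579.8 and 680.4 in transgenic trained mice, against 570.1, 615, 542, 651 and 545 in transgenic untrained mice. Wild-type trained mice had 543, 695, 747, 506 and 514, against 524, 481, 631, 668 and 337 in wild-type untrained mice. The groups overlapped, WTUT-142 was lowest and wtt-137 highest, and the training difference was 0.14 ± 0.10 log2 (adjusted p = 0.465). Col6a3 had intensities of 382, 331, 424, 346 and 394 in transgenic trained mice, against 301, 384, 362, 406 and 357 in transgenic untrained mice. Wild-type trained mice had 304, 301, 532, 298 and 309, against 324, 311, 423, 288 and 276 in wild-type untrained mice. Array wtt-137 stood apart, the other mice of the groups overlapped, and the training difference was 0.06 ± 0.09. All 3 type VI chains lay above 0 with training, at a median of 0.14 log2, and none was called.

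Type IV collagen in muscle is mostly the trimer of Col4a1 and Col4a2 chains, whose genes sit head to head on mouse chromosome 8. Their starts are shown because both chains are set side by side below. In RefSeq (GRCm38.p6) Col4a1 starts at base 11312826 on the minus strand and Col4a2 at base 11312805 on the plus strand, 21 bases apart, so that the stretch chr8:11312805-11312826, given 5′ to 3′ on the plus strand, belongs to both transcripts.
Col4a1 and Col4a2 starts: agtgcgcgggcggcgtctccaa
Col4a1 had intensities of 494, 759, 542, 603 and 614 in transgenic trained mice, against 784, 888, 689.7, 1076 and 967 in wild-type trained mice. In untrained mice it had 770.0, 672, 688, 967 and 861 in transgenic, against 693, 906, 823, 669 and 1062 in wild-type mice. Of the transgenic trained mice only TGT-132 reached the range of wild-type trained mice, and the untrained groups overlapped widely.

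Col4a2 had intensities of 417, 507, 440.5, 556 and 455 in transgenic trained mice, against 625, 681, 534, 808 and 671 in wild-type trained mice. In untrained mice it had 566, 485, 525, 541 and 659.7 in transgenic, against 482, 658, 545, 558 and 840.5 in wild-type mice. As for Col4a1, the trained groups overlapped by a single mouse on each side, TGT-140 and wtt-137.

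The transgene difference averaged over training was -0.28 ± 0.10 log2 for Col4a1 (adjusted p = 0.144) and -0.27 ± 0.09 for Col4a2 (95% interval -0.45 to -0.10, adjusted p = 0.111), so neither was called. In trained mice it was -0.50 ± 0.14 for Col4a1 (95% interval -0.78 to -0.22, adjusted p = 0.201) and -0.43 ± 0.12 for Col4a2 (adjusted p = 0.220), and in untrained mice -0.06 ± 0.14 and -0.12 ± 0.12 for the same genes. The interaction, the training difference of transgenic minus that of wild-type mice, was -0.44 ± 0.19 for Col4a1, the 1 collagen gene with an unadjusted p under 0.05 (adjusted p = 0.9999). In transgenic mice alone the training difference of Col4a1 was -0.36 ± 0.14 (adjusted p = 0.176). A further Col4a1 probe set gave -0.16 ± 0.06 for the transgene averaged over training (adjusted p = 0.182) and -0.28 ± 0.09 in trained mice (adjusted p = 0.252). It also gave smaller values for training in transgenic mice (-0.14 ± 0.09, adjusted p = 0.4465) and for the interaction (-0.22 ± 0.12, adjusted p = 0.9999). Without wtt-137, Col4a1 passed in trained mice (-0.58, adjusted p = 0.0484) and Col4a2 passed averaged over training (-0.31, adjusted p = 0.0477). Each passed in only 1 of the 20 fits that left out 1 mouse. Leaving out wtt-137 also raised the calls over all probe sets in both contrasts. Averaged over training they were 525, against 167 in the reported fit, and in trained mice they rose above the reported 7. The gain in calls was thus not particular to type IV.

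Cdh5, the endothelial cadherin, fell by 0.30 ± 0.06 log2 in transgenic mice averaged over training (adjusted p = 0.0221). It was the 1 of 6 tested endothelial markers called, where 1.23% of all probe sets were called and 0.906% were lower, and it averaged 256 ± 38.4 in transgenic trained, 281 ± 28.97 in transgenic untrained, 350.4 ± 38.6 in wild-type trained and 340.1 ± 42.6 in wild-type untrained mice (SD, n = 5 each). Over the 6 tested endothelial markers the median transgene difference was -0.07 log2, with 2 above 0 and a range of -0.30 to 0.19. The summed intensity of 7 endothelial markers ran 1909 to 2400 in transgenic trained, 2020 to 2613 in transgenic untrained, 2233 to 2375 in wild-type trained and 2010 to 2810 in wild-type untrained mice. Its part in the type IV values was not tested.

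**Figure D3:**
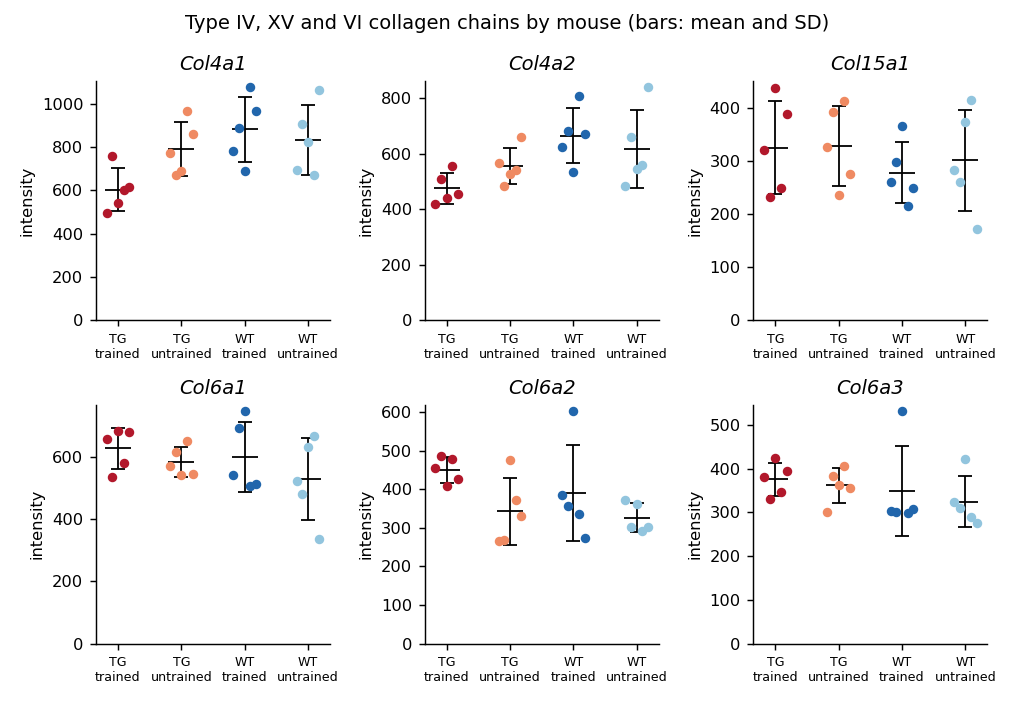
Intensity per mouse of Col4a1, Col4a2, Col15a1 and the type VI chains in the 4 groups (5 mice each), with mean and SD as bars. For Col4a1 and Col4a2 the transgenic trained mice average 602 and 475, below the other groups, with ranges that overlap.

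Among the other basement membrane chains, Col4a6, which pairs with Col4a5, averaged 534 ± 36.3 in transgenic trained, 522 ± 46.8 in transgenic untrained, 476 ± 33.0 in wild-type trained and 499 ± 21.5 in wild-type untrained mice (SD, n = 5 each). Its transgene difference averaged over training was 0.10 ± 0.04 log2 (adjusted p = 0.255), opposite in sign to Col4a1 and Col4a2. Col4a3 differed by 0.03 ± 0.065 between genotypes. Averaged over genotypes, the 4 tested type IV chains lay at or below 0 with training, at -0.14 for Col4a1, -0.05 for Col4a2, -0.04 for Col4a3 and -0.02 for Col4a6. The genotypes differed in sign for Col4a1 (0.08 ± 0.14 in wild-type, -0.36 ± 0.14 in transgenic mice) and Col4a2 (0.11 ± 0.12 and -0.20 ± 0.12). They also did for Col4a6 (-0.06 and 0.03), while Col4a3 lay at -0.02 and -0.05.

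Col15a1 and Col18a1 encode the multiplexins of basement membrane zones; type XVIII collagen is the source of endostatin. Col15a1 averaged 325 ± 88.4 in transgenic trained, 328 ± 75.5 in transgenic untrained, 278 ± 57.6 in wild-type trained and 301 ± 95.9 in wild-type untrained mice, and single mice ran between 173 and 438. Col18a1 averaged 194 ± 12.9 in transgenic trained, 194 ± 18.1 in transgenic untrained, 184 ± 3.68 in wild-type trained and 181 ± 22.4 in wild-type untrained mice (SD, n = 5 each), with single mice between 160.2 and 213. Transgene differences were 0.15 ± 0.13 log2 for Col15a1 (adjusted p = 0.584) and 0.07 ± 0.04 for Col18a1 (adjusted p = 0.431), and training differences -0.04 ± 0.13 and 0.01 ± 0.04.

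Over all collagen genes, 0 of 24 were called for the transgene averaged over training, against 1.23% of all probe sets. Unadjusted, 4 had a p under 0.05 (16.7%, against 17.3% of all), with Col1a2 and Col4a6 higher and Col4a1 and Col4a2 lower in transgenic mice. In trained mice 0 were called, against 0.0516% of all probe sets, and in untrained mice 0, against 0.11% (0.0147% higher and 0.0958% lower); unadjusted, 3 had a p under 0.05 in each state (12.5%, against 12.5% of all in trained and 8.12% in untrained mice). The interaction gave 0 calls among collagen genes and 0% of all probe sets. The median transgene difference was 0.06 log2, with 18 of 24 above 0, against 0.00 and 51.7% above 0 over all probe sets.

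Col1a2 had the widest transgene difference averaged over training among fibrillar chains, 0.40 ± 0.14 log2, or 1.32-fold (adjusted p = 0.147, wtt-137 left out), at 0.58 ± 0.19 in untrained (adjusted p = 0.365) and 0.23 ± 0.20 in trained mice. A second Col1a2 probe set, under the limit on mean log2 level and so not tested, has a value for wtt-137. It was 412 there, against 78.1 to 172 in the other wild-type trained and 123 to 190 in transgenic trained mice. The tested difference thus lacks a wild-type mouse that is high on the second probe set. Among the other fibrillar chains the transgene difference averaged over training was 0.19 ± 0.11 for Col1a1 (adjusted p = 0.393), 0.12 ± 0.28 for Col3a1 (adjusted p = 0.852), 0.09 ± 0.05 for Col5a1, 0.03 ± 0.09 for Col5a2, -0.08 ± 0.07 for Col5a3 and 0.13 ± 0.14 for Col11a2. For the type VI chains it was 0.11 ± 0.10 for Col6a1, 0.13 ± 0.10 for Col6a2 and 0.13 ± 0.09 for Col6a3, which had adjusted p of 0.569, 0.551 and 0.479.

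The remaining tested genes are mostly fibril-associated collagens, which sit on the surface of fibrils. Their training and transgene differences, both averaged, were 0.14 and 0.03 log2 for Col16a1, 0.10 and -0.08 for Col20a1 (WTUT-136 empty), 0.02 and -0.02 for Col12a1, 0.04 and 0.06 for Col9a3, and -0.04 and 0.02 for Col22a1. A further tested Col20a1 probe set gave 0.05 ± 0.03 for training (adjusted p = 0.401) and 0.11 ± 0.03 for the transgene (adjusted p = 0.0878). The probe sets of Col20a1 thus disagree in sign for the transgene. Col16a1 had the lowest training p of the fibril-associated genes (0.14 ± 0.06, adjusted p = 0.208). Col7a1, the anchoring fibril chain, differed by -0.02 with training and 0.05 with the transgene, Col25a1, a transmembrane collagen, by -0.03 and 0.09, and Col26a1 by 0.04 and -0.02. None was called in any contrast.

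**Figure D4:**
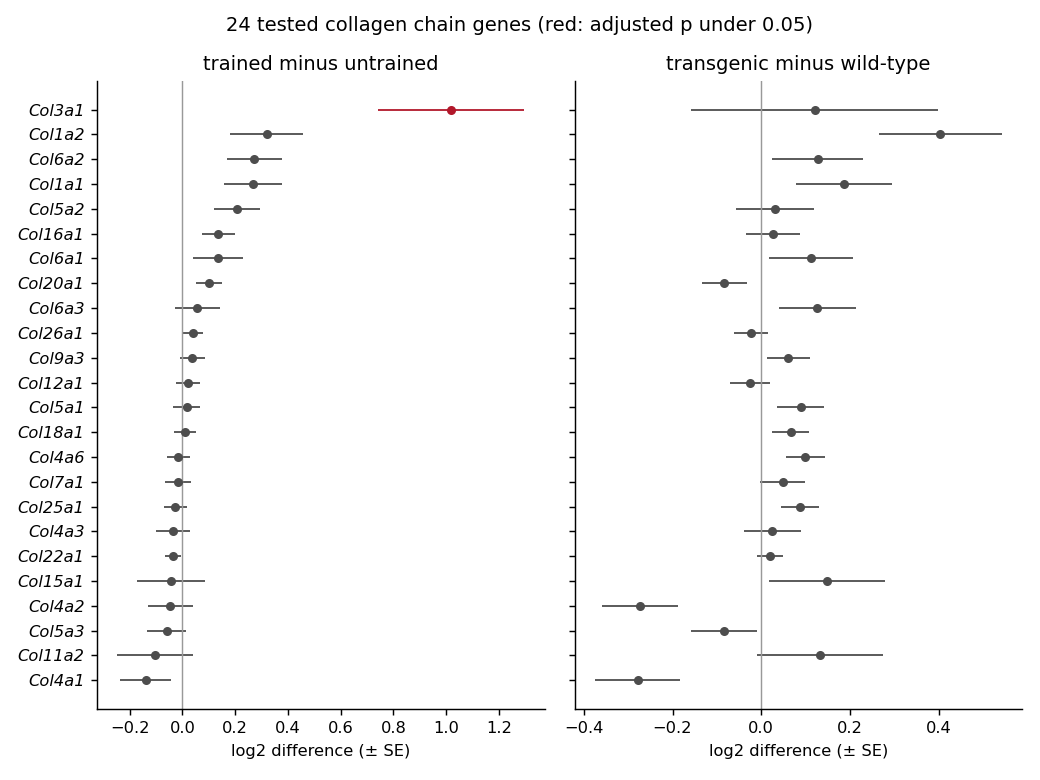
log2 differences with bars of 1 SE to each side (both from the limma fit) of the 24 tested genes for training averaged over genotypes and the transgene averaged over training, positive where trained or transgenic mice are higher. The bars are narrower than 95% intervals. Col3a1 at 1.02 is the only red (called) point, and the bars of Col4a1 and Col4a2 for the transgene lie below 0.

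Genes that make, bind, sense and take apart collagen were counted next, since a collagen is built and removed by many other proteins. For training averaged over genotypes, 0 of 11 tested folding and hydroxylation enzymes, 0 of 8 cleavage and cross-linking genes, 0 of 14 fibril-binding genes, 0 of 10 basement membrane partners, 0 of 6 collagen receptors, 0 of 9 breakdown genes and 0 of 16 TGF-beta pathway genes were called, in the same fit that called 4.99% of all probe sets. The smallest p within each list belonged to Crtap (0.07 ± 0.05) and P4hb (-0.06 ± 0.06), which act in chain folding, Lox (-0.18 ± 0.10) and Tgm2 (-0.18 ± 0.12), which cross-link, Tnxb (0.16 ± 0.07) and Dpt (0.18 ± 0.11), which bind fibrils, and Lamb2 (0.20 ± 0.08) and Lamb3 (0.09 ± 0.05), laminin chains. Among receptors they were Ddr1 (0.18 ± 0.06) and Ddr2 (-0.21 ± 0.11), among breakdown genes the cathepsins Ctsl (-0.74 ± 0.28) and Ctsb (0.14 ± 0.07), and in the TGF-beta pathway Smad3 (0.19 ± 0.07) and Tgfbr1 (-0.21 ± 0.08), with adjusted p between 0.0934 (Ddr1) and 0.604 (P4hb).

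For the transgene averaged over training, 2 of the 14 fibril-binding genes and 1 of the 10 basement membrane partners were called, and 0 in the other 5 lists, in the fit that called 1.23% of all probe sets (0.324% higher and 0.906% lower). Ogn, the small proteoglycan osteoglycin, rose by 0.44 ± 0.09 log2 (adjusted p = 0.0254), with means of 234 ± 29.5 in transgenic trained, 272 ± 61.9 in transgenic untrained, 191 ± 40.4 in wild-type trained and 149 ± 35.2 in wild-type untrained mice. Thbs4, thrombospondin 4, a matrix glycoprotein of tendon and muscle that is also on the tendon marker list, fell by 0.51 ± 0.12 (adjusted p = 0.0497), with means of 396 ± 55.6 in transgenic trained, 484 ± 106 in transgenic untrained, 745 ± 201 in wild-type trained and 583 ± 169.7 in wild-type untrained mice. Lamc1, the gamma chain shared by most laminins, fell by 0.19 ± 0.05 (adjusted p = 0.0467), with means of 263 ± 16.8 in transgenic trained, 260.4 ± 32.0 in transgenic untrained, 306 ± 18.2 in wild-type trained and 309 ± 23.9 in wild-type untrained mice (SD, n = 5 each).

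In the lists without a call for the transgene, the smallest p belonged to P4ha2, a collagen prolyl hydroxylase subunit (-0.31 ± 0.08, adjusted p = 0.0578), and Plod1, a lysyl hydroxylase (-0.13 ± 0.04, adjusted p = 0.0926). They were Lox (-0.25 ± 0.10) and Pcolce2 (0.07 ± 0.04) for cleavage and cross-linking, Adgrg1 (-0.10 ± 0.06) and Itgb1 (0.08 ± 0.05) for receptors, Ctsl (-0.71 ± 0.28) and Mmp14 (-0.09 ± 0.05) for breakdown, and Smad3 (0.19 ± 0.07) and Smad7 (-0.11 ± 0.04) for the TGF-beta pathway.

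Of the marker lists of other cell types, fibroblast (9 tested), smooth muscle (5), macrophage (6), adipocyte (2), Schwann cell (1) and cartilage markers (3) had 0 calls in both averaged contrasts. Over all probe sets 4.99% were called for training and 1.23% for the transgene. Tendon markers had 1 of 6 called for the transgene, Thbs4, and 0 for training, and their summed intensity ran 2110 to 2566 in transgenic trained, 2467 to 3413 in transgenic untrained, 2635 to 3526 in wild-type trained and 2234 to 3500 in wild-type untrained mice. Among fibroblast markers the smallest p for training belonged to Clec3b (0.12 ± 0.04, adjusted p = 0.0940) and Cd34 (0.19 ± 0.07, adjusted p = 0.119). The muscle fibre list had Myh1, a fast myosin heavy chain, higher with training (0.21 ± 0.05, adjusted p = 0.0303) and Ttn, titin, lower (-0.14 ± 0.03, adjusted p = 0.0122), out of 8.

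The collagen genes were then compared mouse by mouse, after each group's mean was taken off each log2 value, so that the correlations hold no group difference. Of the 276 pairs of the 24 tested genes, 62.0% had r above 0, against 50.1% of all pairs of probe sets, and 9.06% had r of at least 0.7, against 3.62%. Pearson's r, Spearman's rho and 2-sided p-values from 100000 permutations within groups were computed for all 276 pairs and adjusted over them, and 44 pairs passed 0.05 for r, 39 with r above 0. The arrays share their scaling and the mice their tissue sampling, and both enter every pair.

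The chains of 1 trimer moved together for types I and IV. Col1a1 and Col1a2 had r = 0.878 over 19 mice (permutation p = 0.00025, adjusted p = 0.00803; rho = 0.900, permutation p = 0.00019, adjusted p = 0.00655), and r = 0.855 without the 2 mice farthest from the median. Col4a1 and Col4a2 had r = 0.796 over 20 mice (permutation p = 0.00026, adjusted p = 0.00803; rho = 0.836, permutation p = 9e-05, adjusted p = 0.00497), and 0.715 without the 2 farthest. Within type VI, Col6a1 and Col6a3 had r = 0.601 (permutation p = 0.0084, adjusted p = 0.05; rho = 0.635, permutation p = 0.0031, adjusted p = 0.0429) and r = 0.766 without the 2 farthest mice, while Col6a1 and Col6a2 had r = 0.263 (permutation p = 0.285, adjusted p = 0.471; rho = 0.203, permutation p = 0.428, adjusted p = 0.585) and 0.358. Col6a2 and Col6a3 had r = 0.611 (permutation p = 0.0409, adjusted p = 0.138; rho = 0.445, permutation p = 0.0729, adjusted p = 0.220), which was 0.373 without wtt-137 and TGUT-145.

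A fibrillar set of Col1a1, Col1a2, Col3a1 and Col5a2, chosen after the values were seen, was also joined across types in the pairs given here. Its pairs Col1a1 with Col5a2 and Col1a2 with Col3a1 are not given, and Col6a2 in the last pair lies outside the set. Col1a2 and Col5a2 had r = 0.824 (permutation p = 6e-05, adjusted p = 0.00331; rho = 0.818, permutation p = 0.00013, adjusted p = 0.00598) and 0.828 without the 2 farthest mice. Col3a1 and Col5a2 had r = 0.799 (permutation p = 0.0003, adjusted p = 0.00803; rho = 0.762, permutation p = 0.00035, adjusted p = 0.00966) and 0.747 without them. Col1a1 and Col3a1 had r = 0.819 (permutation p = 0.00095, adjusted p = 0.0164; rho = 0.772, permutation p = 0.00342, adjusted p = 0.0429) and 0.770 without them. Col3a1 and Col6a2 had r = 0.790 (permutation p = 0.00175, adjusted p = 0.0231; rho = 0.595, permutation p = 0.0206, adjusted p = 0.108), which was 0.611 without TGUT-145 and wtt-137.

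The highest r belonged to Col11a2 and Col15a1, at 0.925 (permutation p = 1e-05, the smallest that 100000 permutations can give, adjusted p = 0.00092; rho = 0.916, permutation p = 1e-05, adjusted p = 0.00092), and 0.898 without WTUT-142 and TGUT-145. Col6a1 and Col15a1 had r = 0.906 (permutation p = 1e-05, adjusted p = 0.00092; rho = 0.908, permutation p = 1e-05, adjusted p = 0.00092), and 0.865 without WTUT-142 and WTUT-138. In TGT-133, the array of highest median (175), Col11a2, Col15a1 and Col6a1 lay 0.43, 0.39 and 0.12 log2 above their group means. In WTUT-142, the array of lowest median (157), they lay at -0.54, -0.58 and -0.53. The part of array level in these pairs was not tested. The 5 pairs with r below 0 that passed all held Col4a2, set against Col5a1, Col6a1, Col11a2, Col15a1 and Col25a1. Of the 276 collagen pairs 1.09% had r at or below -0.7, a smaller share than the 2.08% of all pairs of probe sets. Col4a2 lay -0.09 log2 from its group mean in TGT-133 and 0.43 in WTUT-142. The part of array level in the negative pairs was not tested. Col4a2 and Col6a1 had r = -0.740 (permutation p = 0.00357, adjusted p = 0.0299; rho = -0.638, permutation p = 0.00959, adjusted p = 0.0718), which was -0.549 without WTUT-142 and WTT-141.

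**Figure D5:**
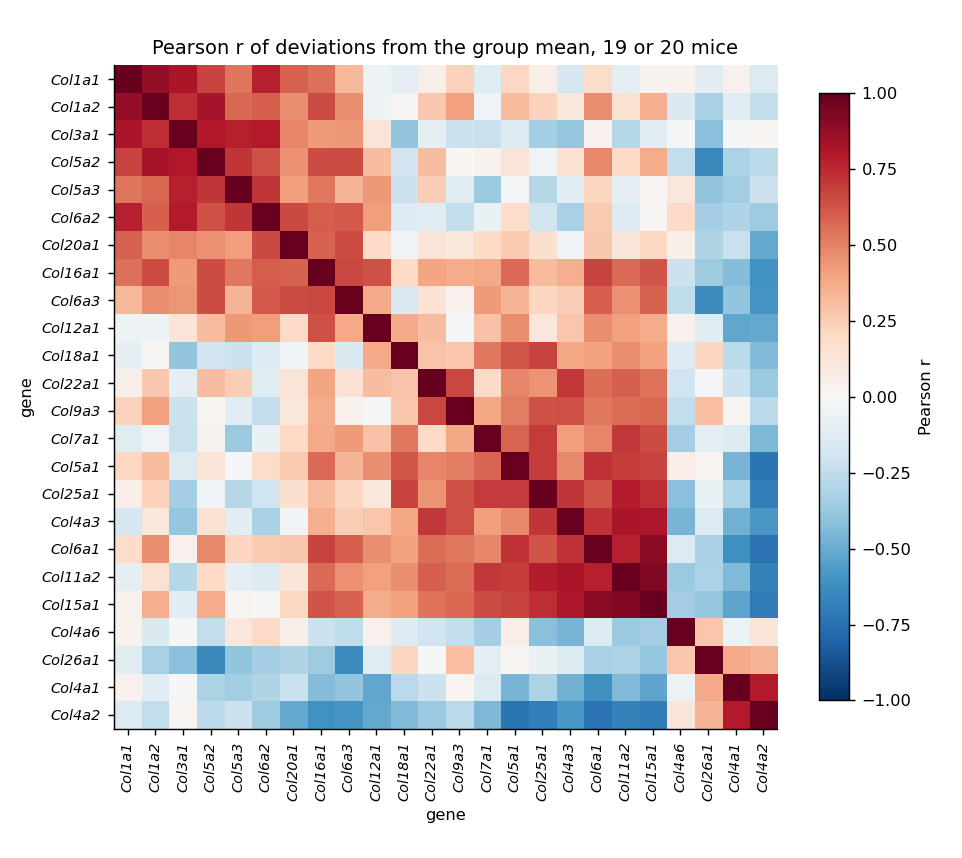
Pearson's r between the 24 tested genes over mice (19 or 20 per pair), after each group's mean was subtracted, as a colour scale between -1 and 1. Among Col1a1, Col1a2, Col3a1 and Col5a2, a set chosen after the values were seen, the pairs given in the text have high r. Col4a1 and Col4a2 are a pair at 0.796, and the Col4a2 line is negative against Col6a1 and Col15a1.

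Some mice were high or low for many of the genes. Array wtt-137 was the highest mouse for 8 of the 24 genes and lay 0.20 log2 above its gene means on average. It also had the highest summed intensity of the wild-type trained mice for macrophage markers (2928, against 2201 in the lowest), adipocyte markers (9571, against 3504), tendon markers (3526, against 2635) and cartilage markers (787.7, against 700.7). It was not the highest of them for fibroblast markers (10390, against 10740 in the highest) or endothelial markers (2289, against 2375). The same held for smooth muscle (3678, against 4299), Schwann cell (313.7, against 315) and muscle fibre markers (109600, against 110500). The part of these markers in the collagen values was not tested. WTUT-142, which had the lowest array median of 157, was the lowest mouse for 10 of the 24 genes and lay at -0.16 on average.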

How the data were processed

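Each sample is 1 array of 1 mouse, hybridised with biotin-labelled total RNA. The authors deposited 1 linear intensity per probe set. The sources used here do not give the summary method, the scaling method or a genome build. Of the table, 1745 cells (0.385%) are empty and were treated as missing. Titles and source names set the groups; a free-text description that conflicts with them was not used.

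From the deposited intensities, log2(intensity + 66.7) was taken (66.7 is the 20th percentile of the table), and 64 control probe sets and those under the 40th percentile of mean level (log2 7.59) were left out, leaving 13576. Two-sided tests used limma 3.58.1 (R 4.3.3) on 1 model of 4 group means with moderated variances that follow a trend (16 residual and 3.47 prior degrees of freedom), in 7 contrasts, adjusted by Benjamini-Hochberg over the 13576 and called under 0.05. SE of differences are from this fit, SD of levels from the mice. The added constant shrinks changes of dim genes. Averaged contrasts are means of 2 differences. The number of arrays limits the precision.

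The members and lists were chosen with earlier results of these data known. Values per mouse were given for any called gene and for the chains of types I, III, V, VI, Col4a1, Col4a2, Col15a1 and Col18a1 (ranges for Col5a1, Col5a3, Col15a1 and Col18a1); other tested genes by their difference. In each list up to 4 called genes per direction were named, otherwise the 2 of smallest p; marker lists other than fibroblast are given by counts and called genes. Myh7, H2-K1 and Acta1 are checks of the labels. Promoter letters came from RefSeq (GRCm38.p6). Alternatives were quantile normalization, centring on medians, other constants and filters, no trend, robust variances, array weights, leaving out the 2 arrays with the most empty cells, 1 probe set per gene, other probe sets, and leaving out each mouse. The fit was tested on simulated data.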

Additional observations from a re-analysis of the deposited data

Results flagged for a closer look

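In 3 of 52 groups tested, 1 mouse lay farther from the others than Dixon's 95% limit allows, and chance alone gives about 1 in 20 groups. For Col1a1 in transgenic trained mice, TGT-143 stood at 664, against 533 to 568 in the other 4 mice. For Col1a2 in wild-type trained mice, WTT-144 stood at 707, against 1145 to 1182 in the other 3 mice measured. For Col6a3 in wild-type trained mice, wtt-137 stood at 532, against 298 to 309 in the other 4 mice.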

How the results depend on the processing

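The Col3a1 training difference kept its direction in every alternative run. The count of collagen genes called for training averaged over genotypes, 1 as reported, was 0 with arrays centred on their medians, 0 with no filter, 0 without the 2 arrays with the most empty cells and 5 with array weights (Col1a1, Col1a2, Col3a1, Col5a2 and Col6a2), where Col3a1 had adjusted p of 0.053, 0.0556, 0.0811 and 0.0012. In that order, these alternatives called 409, 448, 409 and 2716 of all tested probe sets for this contrast. With array weights the counts were 5 for training in transgenic mice and 2 for the transgene in trained mice (Col4a1 and Col4a2), against 0 reported for both. Of all 13576 tested probe sets the weighted fits called 2364 and 900 in these contrasts, against 42 and 7 in the reported fits. The array weights ran between 0.385 for TGUT-145 and 2.98 for WTT-129. Leaving out 1 mouse gave 0 to 3 calls for training averaged, 0 to 1 for the transgene in trained mice, 0 to 1 for the transgene averaged and 0 to 0 in the other contrasts. The cause was not tested.

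Signs turned mainly for differences near 0. The training difference of Col5a1 was -0.0009 with array weights, -0.0016 without the 2 arrays, -0.0086 on another probe set and -0.0175 to 0.0336 without 1 mouse. That of Col6a3 was -0.0318 without the 2 arrays and -0.0125 to 0.0990 without 1 mouse, and that of Col1a1 was -0.0484 on its other probe set. Without 1 mouse, training differences were -0.0823 to 0.0085 for Col4a2, -0.1156 to 0.0107 for Col15a1 and -0.0069 to 0.0294 for Col18a1. The transgene difference of Col3a1 was -0.0041 with array weights and -0.0407 to 0.2609 without 1 mouse, that of Col5a2 -0.0274 to 0.0856 without 1 mouse, and that of Col20a1 in untrained mice 0.1142 on another probe set, against -0.16 reported. No paired analysis was possible because the mouse numbers differ in every group. The 12 genes under the limit on mean level were tested only with no filter, where 0 of all 36 genes were called.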
